A study of Mus musculus with 4 samples.

Results

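Arterial endothelial cells of the mouse fracture callus were examined in 4 single-cell RNA-seq libraries. Cells with 4000 to 50000 unique molecular identifiers (UMIs, 1 per captured transcript), 2000 to 7000 genes and at most 8% mitochondrial UMIs were kept. Endothelial cells were those with at least 2 UMIs of *Pecam1* and at least 1 of *Cdh5*. Arterial cells were selected on their own UMIs, since they had to carry 3 or more UMIs of *Sema3g*, *Gja4* and *Gja5* together, at most 2 of *Selp* and *Ackr1* together, at most 1 of *Mki67*, and none of *Prox1* or *Ptprc*. This rule took 394 arterial cells out of 3600 endothelial cells, 25479 kept cells and 34038 barcodes. The tibia of male wild-type C57BL/6J mice, 3 months old, was fractured, and callus was collected 4 or 7 days post fracture (dpf). RA mice had been injected with K/BxN serum, which transfers inflammatory arthritis, and control mice with vehicle. Each group was 1 library made from pooled calluses that were digested with collagenase, so the spread between mice was not measured, and values of RA against control carry no test. The control libraries held 100 arterial cells at 4 dpf and 122 at 7 dpf, and the RA libraries held 51 and 121. Summed over the arterial cells, these libraries gave 2073166, 2051275, 1118970 and 2018428 UMIs, in that order. The median arterial cell held 19590 UMIs in control at 4 dpf, 15543 in control at 7 dpf, 23110 in RA at 4 dpf and 14817 in RA at 7 dpf. No barcode was arterial in more than 1 library, and any 2 libraries shared 5 to 15 barcodes of kept cells.

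Arterial endothelium lines the vessels that carry blood into a tissue, and passes into capillaries and then into venules, where leukocytes leave the blood. Its identity is known to be set by Notch signalling, in which a Delta or Jagged ligand on one cell binds a Notch receptor on its neighbour. Proteases of the ADAM family and gamma-secretase then cut the receptor and release its intracellular part, which joins the DNA-binding protein Rbpj and switches on *Hey* and *Hes* genes. Arteries also respond to shear stress, contract and relax, and are wrapped by smooth muscle and elastic fibres.

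The label was first checked against genes the selection did not use. The cells were not selected on *Hey1*, a Notch target and arterial transcription factor, which stood at 129 UMIs per 1000000 UMIs of the population (CPM) in control at 4 dpf, 145 in control at 7 dpf, 101 in RA at 4 dpf and 110 in RA at 7 dpf. In the other endothelial cells that met the *Prox1*, *Mki67* and *Ptprc* limits, it stood at 15.9 to 24.6 CPM in cells with at most 2 UMIs of *Selp* and *Ackr1* (870 cells, here the capillary gate), and at 2.43 to 4.33 CPM in cells with more of these venular genes (1183 cells, here the venular gate). All 4 arterial values lay above all values of both other populations. *Efnb2*, the arterial ephrin ligand, stood at 403, 448, 406 and 438 CPM in the arterial cells, at 96.3 to 116 CPM in the capillary gate and at 29.4 to 48.8 CPM in the venular gate, again without overlap. With every cell thinned to 8000 UMIs, *Hey1* was detected in 52.3% of arterial cells (exact 95% interval 47.1 to 57.6, counting error only), 12.6% of capillary-gate cells, 3.01% of venular-gate cells and 0.940% of *Ptprc*-positive cells, which should lack it (2000 cells drawn from those with 2 or more UMIs of *Ptprc* and none of *Pecam1* or *Cdh5*). Thinning left out 31 arterial cells that were too shallow, and without thinning these shares were 72.1%, 19.9%, 5.49% and 1.55%. The median depth of all *Ptprc*-positive cells was, by library, 11466 to 15003 UMIs. *Nr2f2*, the transcription factor of venous identity, was detected after thinning in 23.1% of arterial cells, 64.1% of capillary-gate cells and 91.4% of venular-gate cells, and without thinning in 33.2%, 76.7% and 97%. The label of arterial endothelium was therefore kept.

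The 3 selecting genes are given as a description, since the cells were chosen by them. *Sema3g*, a secreted semaphorin, stood at 241, 265, 371 and 357 CPM in control at 4 and 7 dpf and RA at 4 and 7 dpf, *Gja4*, a gap junction connexin of arteries, at 358, 344, 251 and 280 CPM, and *Gja5*, a second arterial connexin, at 110, 180, 175 and 156 CPM. A UMI of *Sema3g* was present in 90.1% of the arterial cells, of *Gja4* in 91.1% and of *Gja5* in 55.8%, and 194 cells (49.2%) carried all of them. The median cell held 10 UMIs of the 3 genes and the highest held 92. At the threshold, 45 cells held exactly 3 such UMIs and 54 otherwise eligible endothelial cells held exactly 2. Among the cells just outside the threshold *Bmx* stood at 7.44 CPM and *Hey1* at 48.3 CPM, among those just inside at 5.75 and 58.6 CPM, and among cells with 6 or more at 144 and 143 CPM. Cells at the threshold were therefore close to those left out, and the arterial level of *Bmx*, a tyrosine kinase of arterial endothelium, came from cells well above it. In cells chosen by the connexins alone *Sema3g* stood at 245, 269, 387 and 388 CPM, against 22.3 to 28.2 CPM in the remaining endothelial cells. In cells chosen by *Sema3g* alone *Gja4* stood at 398, 343, 231 and 255 CPM, against 17.6 to 32.3 CPM.

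Differences from other endothelial cells were tested on UMIs summed per library with edgeR's quasi-likelihood test, with the library as a block and Benjamini-Hochberg adjustment over all genes. The 10 genes of the rule and the 13 mitochondrial genes were not tested. Of 13389 genes, 1936 were higher (14.5%) and 2111 were lower (15.8%) in arterial cells at an adjusted p under 0.05, and 1801 and 2083 of them moved the same way in all 4 libraries. The other endothelial cells include proliferating, lymphatic and *Ptprc*-positive cells that the rule keeps out of the arterial set, so arterial cells were also set against the capillary and venular gates, which obey the same limits. In that fit 12067 genes were tested. Against the capillary gate 1604 genes were higher (13.3%) and 1520 lower (12.6%), and against the venular gate 1917 were higher (15.9%) and 1849 lower (15.3%). The genes higher against both gates numbered 1060, which is 66.1% of the first set and 55.3% of the second, and 769 were lower against both, 50.6% and 41.6% of the sets. The tested genes were measured in the same cells that the arterial markers selected, so a gene that varies with those markers is tested on cells chosen along its own gradient. The libraries are separate pools, each of a different group. With the library as a block, the tests measure how the difference between populations varied over these libraries. They do not measure a spread between replicates of a group.

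Genes known from arteries elsewhere were high as a group. Their list was chosen with earlier results of these data known, so the counts are a description and not independent support. Of 20 such genes outside the rule, 20 were higher and 0 lower against the other endothelial cells, with a median log2 fold change of 2.13, while the median over all genes was −0.02. Against the capillary gate 18 were higher and 0 lower, and against the venular gate 19 were higher and 1 lower. *Efnb2* rose by a log2 fold change of 1.98 (SE 0.09, adjusted p = 2.47e-08) over the capillary gate and 3.39 (SE 0.10, adjusted p = 4.08e-10) over the venular gate. *Stmn2*, a regulator of microtubules, stood at 763, 585, 702 and 543 CPM in the arterial cells and rose by 3.58 (SE 0.20, adjusted p = 1.15e-07) over the capillary gate. *Sox17*, a transcription factor of arterial fate, stood at 301, 251, 243 and 253 CPM and rose by 1.21 over the capillary and 1.94 over the venular gate. *Bmx* rose by 5.38 over the capillary gate and by 3.51 over the venular gate. *Tm4sf1*, a membrane protein of endothelium, stood at 2549, 2196, 1855 and 1813 CPM and rose by 1.47 and 1.30. The gene that was lower against the venular gate was *Mecom*, a zinc finger transcription factor, at −0.19 (SE 0.06, adjusted p = 0.0369), although it was higher than in the capillary gate at 0.63. Among the genes that did not pass against the capillary gate was *Cxcr4*, the receptor of Cxcl12, with a log2 difference of 0.00 (SE 0.15, adjusted p = 0.997). It stood at 54.0, 96.0, 52.7 and 86.7 CPM in arterial cells and 74.2, 83.0, 64.9 and 67.6 CPM in the capillary gate, so these values overlapped, while in the venular gate it stood at 3.42 to 9.90 CPM. Its ligand *Cxcl12* did differ, at 1182, 749, 877 and 886 CPM in arterial cells against 183 to 432 CPM in the capillary gate and 36.0 to 96.0 CPM in the venular gate. These last 3 genes and *Bmx* were picked after their values were seen.

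**Figure D1:**
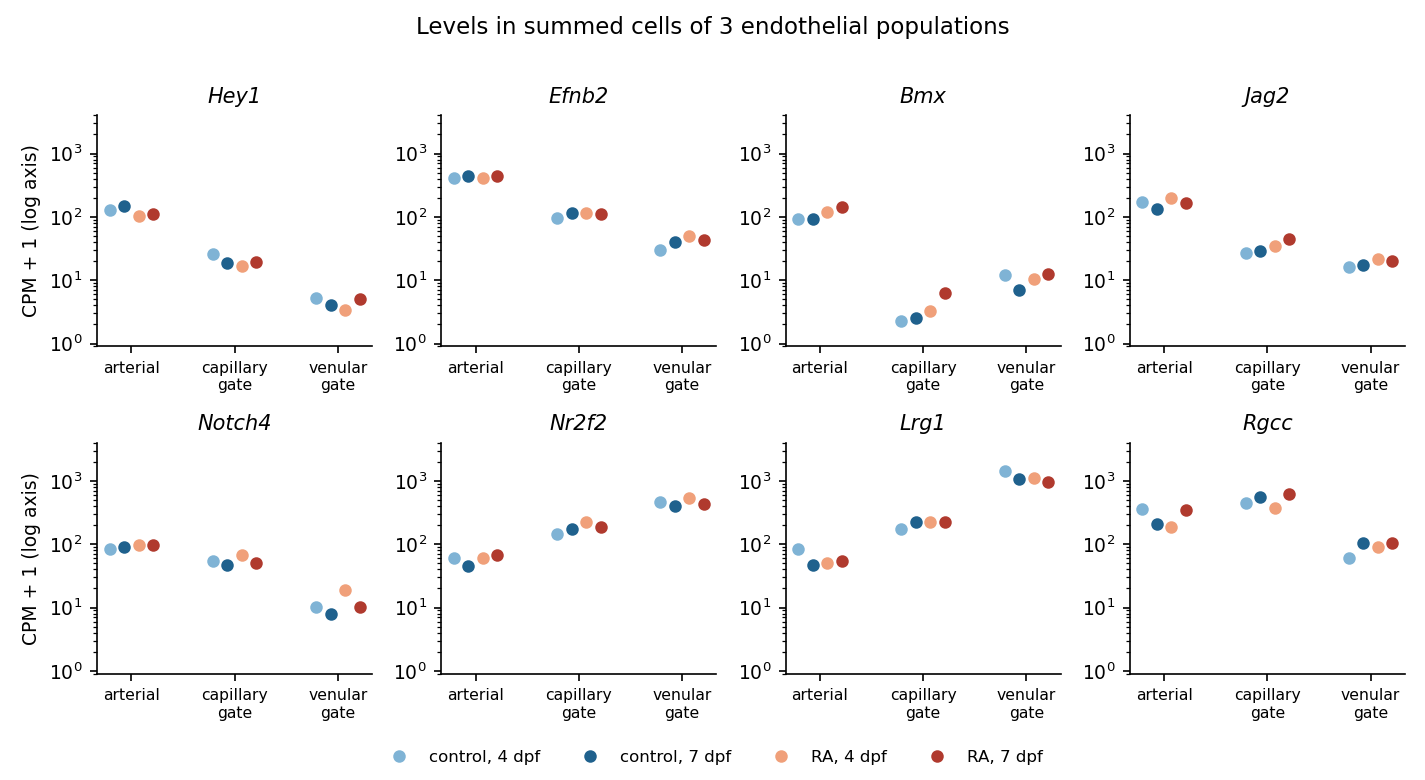
Level of 8 arterial, venous and capillary genes in each of the 4 libraries, as CPM + 1 on a log axis, for arterial, capillary-gate and venular-gate cells (1 point per library). For *Hey1* and *Efnb2* the 4 arterial points lie above all points of the other populations, and for *Nr2f2* they lie below.

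The largest rises over all other endothelial cells, among genes of at least 50 CPM with the same direction in 4 libraries, were outside the classical arterial set for the most part. *Gkn3*, a gastrokine known from brain arteries, stood at 39.1, 53.1, 42.0 and 98.1 CPM in the arterial cells, at most at 0.778 CPM in the capillary gate and at most at 0.540 CPM in the venular gate. Its log2 fold change over the other endothelial cells was 4.49 (SE 0.28, adjusted p = 7.31e-07). It was found in 6 of 100, 28 of 122, 9 of 51 and 29 of 121 arterial cells, and without the highest cell of each library it stood at 20.7, 44.4, 20.6 and 55.0 CPM. *Nebl*, which binds actin, stood at 155, 77.5, 122 and 97.1 CPM against 3.67 to 7.91 CPM, a log2 fold change of 4.15 (SE 0.23, adjusted p = 2.54e-07). *Eps8l2*, of the actin-regulating Eps8 family, stood at 60.3, 53.6, 70.6 and 66.4 CPM against 3.50 to 5.87 CPM, a change of 3.94 (SE 0.18, adjusted p = 6.44e-08). In each of these genes the lowest arterial library lay above the highest library of the other cells, which is no further support, since they were ranked by this rise. The others in order were *Tox2*, an HMG-box nuclear protein (52.8 against 4.15 CPM, means of the libraries), *Tmem100*, a membrane protein of arterial endothelium (75.0 against 5.92), *Atp2a3*, a calcium pump of the endoplasmic reticulum (82.2 against 7.25), *Igf2*, a growth factor (123 against 12.3), *Dkk2*, a secreted modulator of Wnt signalling (122 against 12), *Acta2*, smooth muscle actin (388 against 39.1), and *Ptprr*, a tyrosine phosphatase (79.5 against 8.41).

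*Acta2* was likewise found in a minority of the arterial cells. Its UMIs numbered 662, 1599, 236 and 493, of which the single highest cell gave 423, 755, 130 and 189. A UMI of it was found in 22.1% of arterial cells, and after thinning in 17.4%, beside 7.04% of capillary-gate, 4.69% of venular-gate and 6.81% of *Ptprc*-positive cells. The 12 markers of mural cells, the smooth muscle cells and pericytes around vessels, summed to 601, 1617, 435 and 670 CPM in the arterial cells, with *Acta2* the most abundant at 412 CPM and none at 0. In the capillary gate they summed to 65.1 to 264 CPM. Of the 10 mural markers tested against the capillary gate, 5 were higher and 1 lower. The part of mural cell RNA in the *Acta2* value was not tested. Doublet calls marked 10 of the 394 arterial cells (2.54%) and 206 of the 3206 other endothelial cells (6.43%).

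Notch genes are given by their role. Of 4 ligands, 4 were higher than in the capillary gate and 3 than in the venular gate, and none was lower. *Jag2* stood at 168, 133, 198 and 167 CPM in arterial cells, 25.5 to 44.0 CPM in the capillary gate and 15 to 20.8 CPM in the venular gate, log2 changes of 2.35 (SE 0.12, adjusted p = 7.07e-08) and 3.20 (SE 0.13, adjusted p = 2.71e-09). *Jag1* stood at 186, 202, 214 and 216 CPM and rose by 2.32 and 1.88. *Dll4*, the Delta ligand that marks arteries and sprouting tip cells, stood at 134, 142, 128 and 117 CPM against 62.6 to 82.2 CPM in the capillary gate and 12.8 to 21.1 CPM in the venular gate, changes of 0.82 and 2.87. None of the arterial libraries overlapped the other populations in these 3 ligands. *Dll1* stood at 29.4, 34.6, 60.8 and 56.5 CPM and rose by 0.86 over the capillary gate (SE 0.21, adjusted p = 0.00821), with values in the venular gate of 41.4 to 67.5 CPM that overlapped and did not pass (adjusted p = 0.157).

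Of 4 receptors, 2 were higher and 1 lower than in the capillary gate, and 3 were higher and 1 lower than in the venular gate. *Notch1* stood at 223, 234, 281 and 246 CPM and rose by 0.84 over the capillary gate and 0.51 over the venular gate. *Notch4*, the receptor restricted to endothelium, stood at 81.5, 88.2, 96.5 and 94.6 CPM and rose by 0.79 and 3.09. *Notch3*, a receptor of mural cells, stood at 10.1, 18, 8.94 and 38.1 CPM and passed against the venular gate (1.10, SE 0.35, adjusted p = 0.0293) and not against the capillary gate (0.81, adjusted p = 0.106). With cells chosen by *Sema3g* alone its change over all other endothelial cells turned from 0.97 to −0.26, and without the RA library of 7 dpf it was 0.53 and did not pass. *Notch2* was the receptor that fell, at 3.38, 9.75, 3.57 and 11.4 CPM in arterial cells and a log2 change of −1.10 against the capillary gate and −1.11 against the venular gate.

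Of 14 genes for receptor processing, fringe enzymes and the transcription complex, 1 was higher and 1 lower against the capillary gate, and 0 were higher and 4 lower against the venular gate. *Rbpj* itself stood at 46.8, 59.0, 46.5 and 50 CPM in arterial cells, 52.7 to 64.2 CPM in the capillary gate and 49.0 to 70.9 CPM in the venular gate. These ranges overlapped, and the log2 differences of −0.19 (SE 0.13, adjusted p = 0.337) and −0.29 (SE 0.13, adjusted p = 0.106) did not pass. Against all other endothelial cells it was lower by −0.40 (SE 0.12, adjusted p = 0.0242), a call that was lost when those cells were held to the same *Prox1*, *Mki67* and *Ptprc* limits (−0.21), without the control (−0.36) or RA library (−0.38) of 4 dpf, and without the RA library of 7 dpf (−0.29). *Maml3*, a coactivator of the complex, fell by 1.10 on the log2 scale against the capillary gate and by 0.98 against the venular gate. *Maml2*, *Psen2*, a catalytic subunit of gamma-secretase, and *Lfng*, a fringe glycosyltransferase, fell against the venular gate alone of the 2 gates, and *Numb*, an inhibitor of Notch, rose by 0.45 against the capillary gate.

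Among the targets *Hey1* rose by 2.70 (SE 0.13, adjusted p = 3.88e-08) over the capillary gate and by 5.03 (SE 0.16, adjusted p = 9.69e-10) over the venular gate. *Hey2*, its close relative, was at a lower count, 4.34, 10.2, 20.6 and 17.8 CPM, and rose by 3.84 (SE 0.50) and 4.93 (SE 0.55). *Nrarp*, a feedback regulator of Notch, stood at 95, 119, 93.8 and 67.4 CPM and rose by 0.98 and 1.69. *Hes1*, a target that many cell types carry, stood at 232, 271, 310 and 268 CPM and passed against the venular gate at 0.47, with 0.13 against the capillary gate (adjusted p = 0.227). *Heyl* passed no test, and *Hes5* was too low to be tested. *Dnmt3b*, a DNA methyltransferase that the study is about, was scarce at 18, 19, 14 and 24 UMIs over all arterial cells, or 8.68, 9.26, 12.5 and 11.9 CPM, against 6.56 to 7.45 CPM in the other endothelial cells. Its log2 fold change over these was 0.62 (SE 0.20, adjusted p = 0.0370), and over the capillary gate 0.40 (SE 0.21, adjusted p = 0.192).

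**Figure D2:**
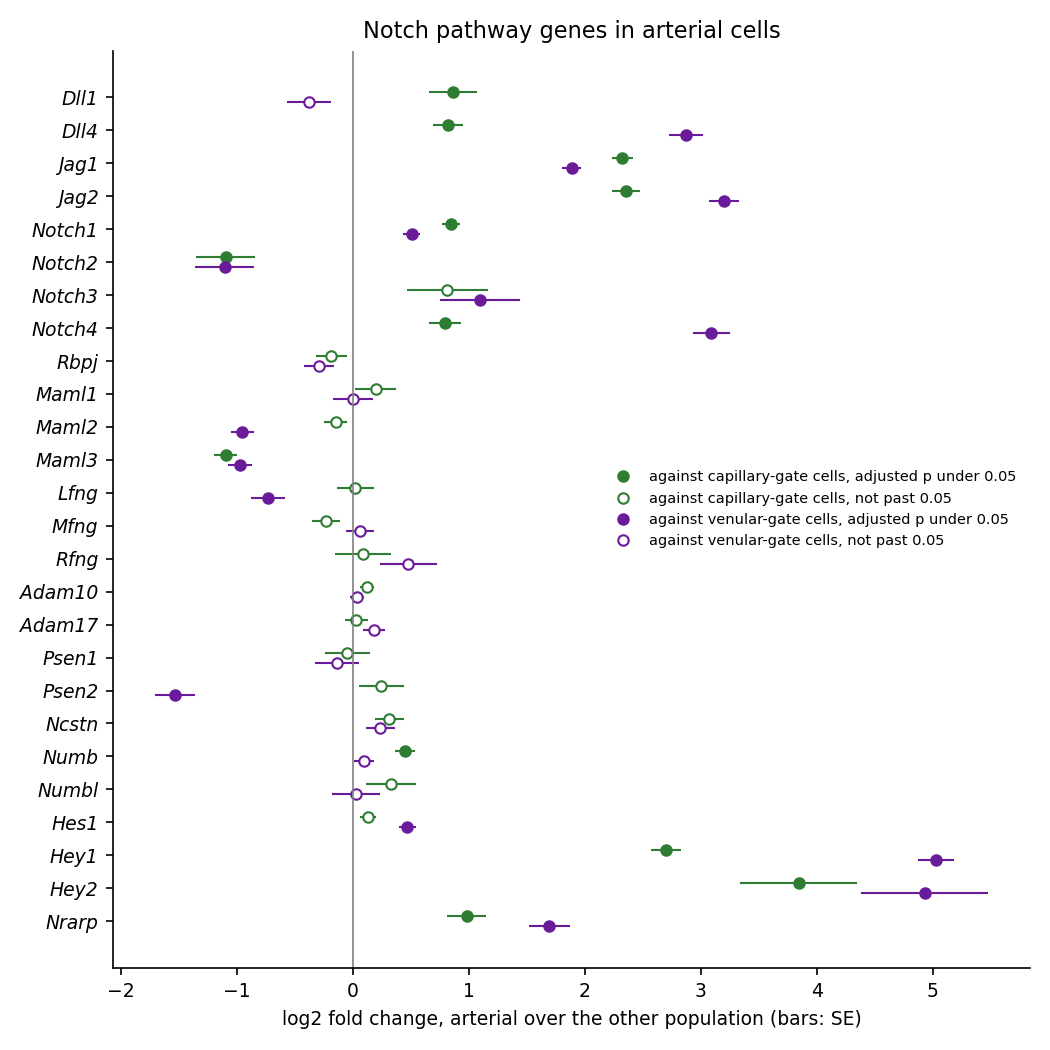
Log2 fold change of each Notch gene in arterial cells over capillary-gate and venular-gate cells, with bars of 1 standard error from the edgeR fit over 4 libraries and filled points where the adjusted p was under 0.05. *Jag1*, *Jag2*, *Hey1* and *Hey2* lie far to the right of 0 in both comparisons, and *Rbpj* has open points near 0.

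Promoter sequences were examined for the core bound by Rbpj, since Notch targets were among the genes that differed. The core, TGGGAA, was searched on both strands (TTCCCA on the reverse) in the 250 bases before the start of each RefSeq gene on GRCm38.p6. The 3 selecting genes held 0 matches. The Notch ligands and targets searched here were not the lists above, since *Efnb2* was counted with them and *Dll1*, *Heyl* and *Hes5* were left out. Of them 6 had an entry, *Dll4*, *Jag1*, *Jag2*, *Hey2*, *Nrarp* and *Efnb2*, while *Hey1* and *Hes1* had none. Among these 6 genes 1 held the core, *Hey2*, at 207 bases before its RefSeq start on the reverse strand. Of all 32851 promoter windows 21.6% held the core, and of all 27025 genes with a window 24.1%. By gene it was found in 26.1% of the genes higher in arterial cells than in other endothelial cells (392 of 1502 with a window), 24.1% of the lower ones (386 of 1604) and 23.2% of genes not called (1666 of 7188). Of the leading genes above that had an entry, 3 of 9 held it (*Nebl*, *Igf2* and *Acta2*). A match is only a stretch of letters, and the absence of one in this window says nothing of binding elsewhere. The bases before *Gja4*, a selecting gene without a match, and *Hey2*, the target with one, are shown 5′ to 3′ on the coding strand with the core in capitals. They lie on the minus strand at chr4:127314040-127314289 (*Gja4*) and chr10:30842802-30843033 (*Hey2*) and end at the base before the outermost start of RefSeq or GENCODE, which for *Hey2* lies upstream of the RefSeq start from which its match was counted.
Gja4: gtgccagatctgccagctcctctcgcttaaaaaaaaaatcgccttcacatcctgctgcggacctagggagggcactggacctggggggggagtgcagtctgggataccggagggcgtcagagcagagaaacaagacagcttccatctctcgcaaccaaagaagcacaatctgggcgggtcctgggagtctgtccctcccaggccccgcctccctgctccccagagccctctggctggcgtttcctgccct
Hey2: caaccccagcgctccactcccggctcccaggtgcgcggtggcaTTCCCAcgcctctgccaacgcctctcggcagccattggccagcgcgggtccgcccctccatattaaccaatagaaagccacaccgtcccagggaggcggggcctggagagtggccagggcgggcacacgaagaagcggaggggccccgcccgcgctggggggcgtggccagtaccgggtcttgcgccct

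Genes of blood flow and vessel tone were mostly higher. Of 17, 11 were higher and 4 lower than in the capillary gate (median log2 fold change 1.04), and 11 were higher and 2 lower than in the venular gate. *Klf2*, the transcription factor induced by laminar shear, stood at 590, 478, 559 and 544 CPM in arterial cells, 134 to 193 CPM in the capillary gate and 136 to 199 CPM in the venular gate, rises of 1.75 (SE 0.11, adjusted p = 3.04e-07) and 1.62 (SE 0.11, adjusted p = 1.72e-07). *Nos3*, endothelial nitric oxide synthase, stood at 155, 137, 157 and 143 CPM against 65.1 to 76.6 CPM in the capillary gate, a rise of 1.08. The endothelin receptor gene *Ednrb* stood at 104, 60.5, 84.0 and 125 CPM and rose by 1.04 over the capillary and 2.27 over the venular gate. *Ptgs1*, a cyclooxygenase of prostanoid synthesis, moved the other way, at 1.93, 5.85, 7.15 and 4.46 CPM in arterial cells, 17.1 to 42.7 CPM in the capillary gate and 104 to 165 CPM in the venular gate. Its log2 changes were −2.57 (SE 0.25, adjusted p = 1.08e-05) and −4.90 (SE 0.21, adjusted p = 4.51e-09). The groups did not overlap in any of these genes except *Ednrb*, whose lowest arterial library lay just below the highest capillary-gate library at 61.0 CPM. These genes were named for their small p, so the separation is no further support.

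Cell junction genes were higher in 8 and lower in 3 of 13 against the capillary gate, and in 7 and 2 against the venular gate. *Cldn5*, the main claudin of endothelial tight junctions, stood at 1020, 1307, 1043 and 1418 CPM, against 334 to 432 CPM in the capillary gate and 28.3 to 89.9 CPM in the venular gate. *Cgnl1*, a tight junction adaptor, stood at 88.3, 127, 132 and 163 CPM and rose by 2.29 (SE 0.13, adjusted p = 1.71e-07) and 4.30 (SE 0.16, adjusted p = 1.57e-09). *Pkp4*, a plakophilin of adherens junctions, fell by 0.26 and 1.37 on the log2 scale. *Gja1*, the connexin of many tissues, fell by 0.59 against the capillary gate and did not pass against the venular gate (−0.13, adjusted p = 0.232), and was picked after its values were seen.

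In the TGF-beta and BMP pathway 12 of 18 genes were higher and 2 lower than in the capillary gate, and 10 were higher and 4 lower than in the venular gate. *Smad6*, an inhibitor of BMP signalling and one of its targets, stood at 60.3, 55.6, 84.9 and 74.8 CPM against 11.1 to 17.7 CPM in the capillary gate and 15.6 to 21.0 CPM in the venular gate. *Acvrl1*, the BMP receptor ALK1 of arteries, stood at 145, 118, 145 and 141 CPM and rose by 1.30 and 1.02. Both *Id1* and *Id3*, targets of BMP receptors, rose as well, by 0.81 and 0.78 over the capillary gate. *Tgfbr3*, a coreceptor, fell by 1.48 and 2.28 on the log2 scale. Of 13 genes of the VEGF and angiopoietin system, 5 were higher and 2 lower than in the capillary gate. The ligands *Vegfc* (89.2, 133, 79.5 and 152 CPM, against 10.9 to 12.7 CPM) and *Vegfa* (50.2, 52.2, 34.0 and 56.5 CPM, against 8.94 to 20.2 CPM) were higher than there without overlap, while the coreceptor *Nrp2* and *Angpt2*, an antagonist of the Tie2 receptor, fell by 1.43 and 1.29. Among 19 guidance genes 8 were higher and 4 lower than in the capillary gate, with *Efnb2*, *Sema7a* and *Unc5b* higher than in both gates. *Ephb4*, the venous receptor of Efnb2, did not pass in any of these comparisons, and was picked after its values were seen.

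Elastic fibre genes did not move one way. Of 21, 6 were higher and 8 lower than in the capillary gate, and 4 were higher and 2 lower than in the venular gate. *Fbln5*, which organises elastic fibres, stood at 375, 420, 500 and 603 CPM in arterial cells, 34.9 to 86.0 CPM in the capillary gate and 108 to 222 CPM in the venular gate. *Ltbp4*, a partner of it, stood at 492, 652, 744 and 868 CPM and rose by 2.56 and 1.45. *Mgp*, matrix Gla protein, an inhibitor of vessel calcification, stood at 528, 2181, 2206 and 2292 CPM, so that control at 4 dpf was lower than the other libraries, and rose by 3.47 and 2.73. *Eln*, the gene of elastin, picked after its values were seen, stood at 144, 437, 504 and 817 CPM in arterial cells against 21.5 to 106 CPM in the capillary gate (3.33, SE 0.34, adjusted p = 1.64e-05), but at 328 to 392 CPM in the venular gate, where it did not pass (0.11, adjusted p = 0.825). *Efemp1* and *Emilin2*, which encode extracellular matrix proteins, were below 6 CPM in every arterial library and were among the genes that fell against the capillary gate. The 8 mesenchymal markers moved with these falls, at 267, 3186, 122 and 2357 CPM summed over arterial cells (*Col1a1* the most abundant at 467 CPM, none at 0) and 2695 to 8908 CPM in the capillary gate, and their part in the falls was not tested. Of 15 basement membrane genes 5 were higher and 8 lower than in the capillary gate, and 11 and 2 than in the venular gate. *Lama3*, a laminin chain, stood at 74.3, 61.4, 68.8 and 78.3 CPM, a rise of 2.45 over the capillary and 2.75 over the venular gate, and *Col18a1*, the source of endostatin, at 1036, 1062, 1184 and 909 CPM rose by 0.84 and 1.25.

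Venous genes were low in the arterial cells, also against the capillary gate. Of 15 outside the rule, 9 were lower and 3 higher than in the capillary gate, and 13 lower and 0 higher than in the venular gate, which was chosen by venular genes. *Nr2f2* stood at 59.3, 44.9, 59.0 and 66.4 CPM in arterial cells against 146 to 226 CPM in the capillary gate, a log2 change of −1.63 (SE 0.11, adjusted p = 6.99e-07). *Sele*, the E-selectin that captures leukocytes, was nearly absent at 0.965, 0.00, 0.894 and 0.495 CPM, against 14.1 to 24.3 CPM in the capillary gate and 223 to 263 CPM in the venular gate. *Lrg1*, a secreted glycoprotein of venules, stood at 82.5, 45.8, 50 and 54.0 CPM against 173 to 227 CPM in the capillary gate. *Il1r1*, the receptor of interleukin 1, stood at 15, 21.9, 16.1 and 25.3 CPM against 53.3 to 76.0 CPM. The 3 exceptions were *Vwf*, *Vcam1* and *Tspan7*. *Vwf*, the clotting protein von Willebrand factor, picked after its values were seen, was higher than in the capillary gate (89.7, 145, 98.3 and 158 CPM against 39.9 to 61.3 CPM) and lower than in the venular gate at 449 to 725 CPM.

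Of 20 NF-kB and activation genes, 5 were higher and 7 lower than in the capillary gate, and 1 higher and 11 lower than in the venular gate. *Icam1*, a leukocyte adhesion molecule, stood at 115, 87.8, 129 and 99.1 CPM in arterial cells and 93.5 to 118 CPM in the capillary gate, where it did not pass (0.03, adjusted p = 0.890), and at 308 to 385 CPM in the venular gate. *Cxcl10*, a chemokine induced by interferon, was at 5.95 to 9.26 CPM in the arterial libraries and fell by 1.62 and 3.04 on the log2 scale. Of 17 interferon response genes, 2 were higher and 1 lower than in the capillary gate, no more than the shares over all genes given above, and 3 were higher and 5 lower than in the venular gate. Immediate early and heat shock genes were higher in 11 and lower in 0 of 12 against the capillary gate, and in 10 and 0 against the venular gate, with a median of 0.86 and 0.90. *Junb* stood at 1045, 1202, 906 and 1354 CPM against 471 to 687 CPM in the capillary gate, and *Fos* and *Dusp1* rose by 1.03 and 0.98.

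Of 14 capillary genes, 9 were lower and 2 higher than in the capillary gate, while 6 were lower and 7 higher than in the venular gate. *Emcn*, a mucin of capillaries and veins, stood at 314, 246, 252 and 252 CPM against 506 to 715 CPM, *Plvap*, which forms the diaphragms of fenestrae, at 493, 276, 412 and 272 CPM against 715 to 766 CPM, and *Aqp1*, a water channel, at 246, 122, 201 and 226 CPM against 187 to 536 CPM. Only *Aqp1* overlapped among these. *Btnl9* was an exception that rose over the capillary gate by 1.05 (adjusted p = 0.0421). Of 15 tip cell genes 8 were lower and 2 higher than in the capillary gate, and the 2 that rose were *Dll4* and *Ednrb*. Against the venular gate the count was the reverse, with 2 lower and 11 higher. *Apln*, the apelin ligand of sprouting tips, stood at 15, 41.9, 8.94 and 4.95 CPM against 65.8 to 149 CPM in the capillary gate, a change of −2.71 (SE 0.34, adjusted p = 9.05e-05).

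The largest falls against all other endothelial cells were in genes of cells that the rule keeps out. The 10 largest were *Ccl21a* and *Mmrn1* of lymphatic vessels, *Camp*, *Chil3*, *S100a8*, *S100a9*, *Wfdc21*, *Ngp* and *Lcn2* of myeloid cells, and *Sele*, which was highest in the venular gate. *Ccl21a* was at most at 0.991 CPM in an arterial library and at 287 to 984 CPM in the other endothelial cells. *S100a9* differed by −6.98 from the other endothelial cells, by 0.02 from the capillary gate (adjusted p = 0.977) and by −0.55 from the venular gate (adjusted p = 0.190). *S100a8* and *Lcn2* did not pass against the capillary gate either (adjusted p = 0.438 and 0.367). Both were lower than in the venular gate, by −0.84 (adjusted p = 0.00681) and −2.67 (adjusted p = 0.0383). Myeloid markers summed to 114, 92.1, 139 and 63.4 CPM in arterial cells (11 markers, *Lyz2* the most abundant at 30.4 CPM, none at 0), against 2924 to 6414 CPM in the other endothelial cells and 131 to 278 CPM in the capillary gate. The 6 lymphatic markers summed to 34.0 to 50.7 CPM, with *Flt4* the most abundant at 38.0 CPM. Cell cycle genes were lower in 13 and higher in 0 of 14 against all other endothelial cells, and were lower in 7 and higher in 0 of 11 against the capillary gate. Against the venular gate 2 of 11 were lower and 1 higher, near the shares over all genes.

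The arterial cells also varied among themselves. They are described here by a UMI of *Gja5*, which 220 of them carried and 174 did not, a split that was chosen after values were seen and gets no test. The split is not one of *Gja5* alone, since the other selecting genes were also higher in cells with it in all 4 libraries, *Gja4* at 457, 372, 316 and 338 CPM against 269, 288, 161 and 199 CPM. The number of marker UMIs gave a like contrast, with *Rgcc* at 506 CPM in cells just inside the threshold and 197 CPM in those with 6 or more. *Gkn3* stood at 81.6, 77.0, 70.5 and 154 CPM in cells with *Gja5*, in control at 4 and 7 dpf and RA at 4 and 7 dpf, and at 0.915, 5.82, 2.15 and 21.2 CPM in cells without it. *Mgp* stood at 862, 2669, 3073 and 3706 CPM with *Gja5* and 228, 1213, 991 and 341 CPM without. *Eln* stood at 198, 622, 761 and 1333 CPM with it and 95.1, 69.8, 144 and 106 CPM without. *Gkn3*, *Mgp* and *Eln*, with *Fbln5* and *Bmx*, were higher with *Gja5* in each of the 4 libraries. Lower values with *Gja5* were seen in the capillary genes *Rgcc* and *Cd36*, while *Aqp7*, another gene of that list, was lower in 3 libraries and higher in RA at 4 dpf (18.4 CPM with and 6.44 CPM without). *Rgcc* stood at 226, 114, 95 and 191 CPM with *Gja5* and 480, 390, 315 and 545 CPM without, and *Cd36*, a fatty acid transporter, at 344, 199, 375 and 288 CPM with and 499, 324, 648 and 626 CPM without. *Cxcl12* fell on the same side, at 871, 497, 660 and 671 CPM with and 1461, 1249, 1180 and 1184 CPM without. *Hey1* was higher with *Gja5* in every library, though less apart, at 158, 158, 132 and 118 CPM against 102, 121, 57.9 and 99.1 CPM. *Sox17* stood at 294, 212, 216 and 282 CPM with *Gja5* and 308, 329, 281 and 212 CPM without. It was thus higher with *Gja5* in RA at 7 dpf alone. The median depth of cells with *Gja5* was 23499, 16068, 23553 and 14737 UMIs and of cells without it 18468, 13124, 22981 and 14938 UMIs, so that a cell without a UMI was also shallower in 3 of 4 libraries.

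**Figure D3:**
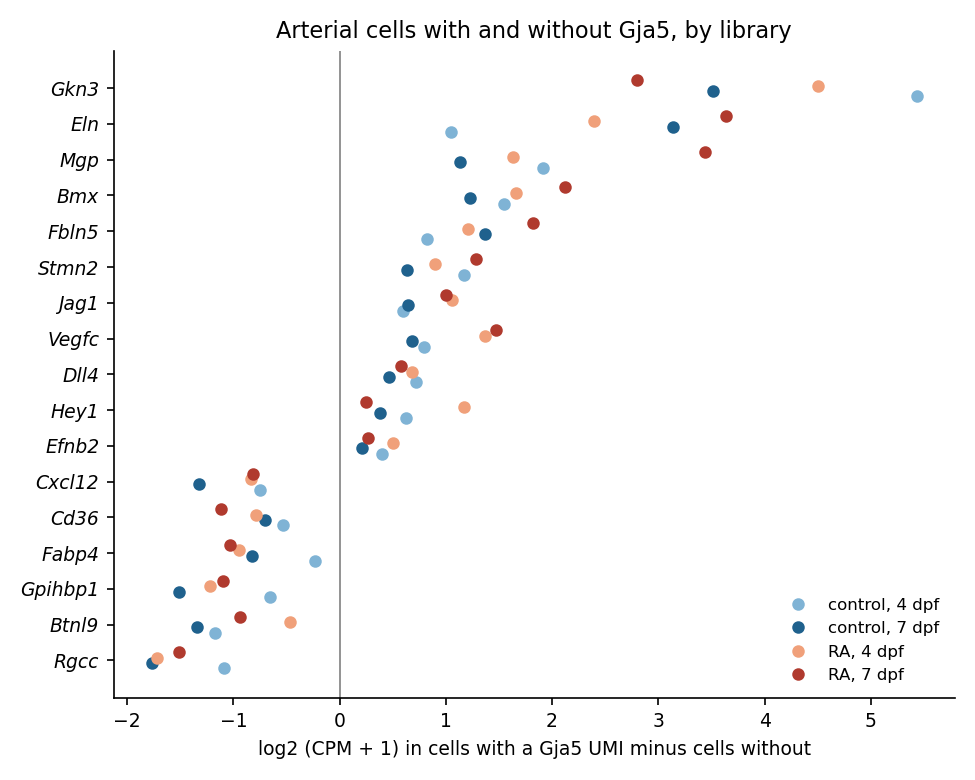
Difference in log2(CPM + 1) between arterial cells with and without a UMI of *Gja5* (horizontal), by gene (rows), with 1 point per library. Points of *Gkn3*, *Eln* and *Mgp* lie to the right of 0 in all 4 libraries, and those of *Rgcc*, *Cd36* and *Cxcl12* to the left.

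Arterial cells were a smaller share of endothelial cells in the RA libraries than in the control library of the same day. At 4 dpf they were 14% of endothelial cells in control (100 of 716, exact 95% interval 11.5 to 16.7) and 9.68% in RA (51 of 527, 7.29 to 12.5), which is 0.693 times as many (0.485 to 0.980). On the later day their share was 12.1% in control (122 of 1005, 10.2 to 14.3) and 8.95% in RA (121 of 1352, 7.48 to 10.6), a ratio of 0.737 (0.569 to 0.956). With 1 library per group no test was made, and these intervals cover counting error only. Of all kept cells the arterial share was 1.83% and 1.24% at 4 dpf (ratio 0.679, 0.475 to 0.960) and 1.59% and 1.47% at 7 dpf (ratio 0.926, 0.714 to 1.20). At 7 dpf the interval thus held 1 when all kept cells were the denominator. At 4 dpf it held 1 for cells with at least 6 UMIs of the selecting genes, 0.748 (0.490 to 1.13), and for the share among endothelial cells under the *Prox1*, *Mki67* and *Ptprc* limits, 0.715 (0.500 to 1.01). With each endothelial cell thinned to 8000 UMIs the ratios of endothelial shares were 0.652 (0.418 to 1.00) and 0.754 (0.556 to 1.02). Cells chosen by *Sema3g* alone gave ratios nearer to 1, 0.888 (0.606 to 1.29) and 0.881 (0.661 to 1.18), and cells chosen by the connexins alone gave 0.644 (0.424 to 0.965) and 0.669 (0.498 to 0.898). The level of *Sema3g* in arterial cells was higher, and that of *Gja4* lower, in both RA libraries than in both controls, as given above. The capillary gate gave ratios of 0.965 and 0.619 (0.527 to 0.726) and the venular gate 1.09 and 1.65 (1.41 to 1.94) at 4 and 7 dpf. From 4 to 7 dpf the arterial share changed by a ratio of 0.869 (0.662 to 1.14) in control and 0.925 (0.661 to 1.31) in RA, both with intervals that hold 1.

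**Figure D4:**
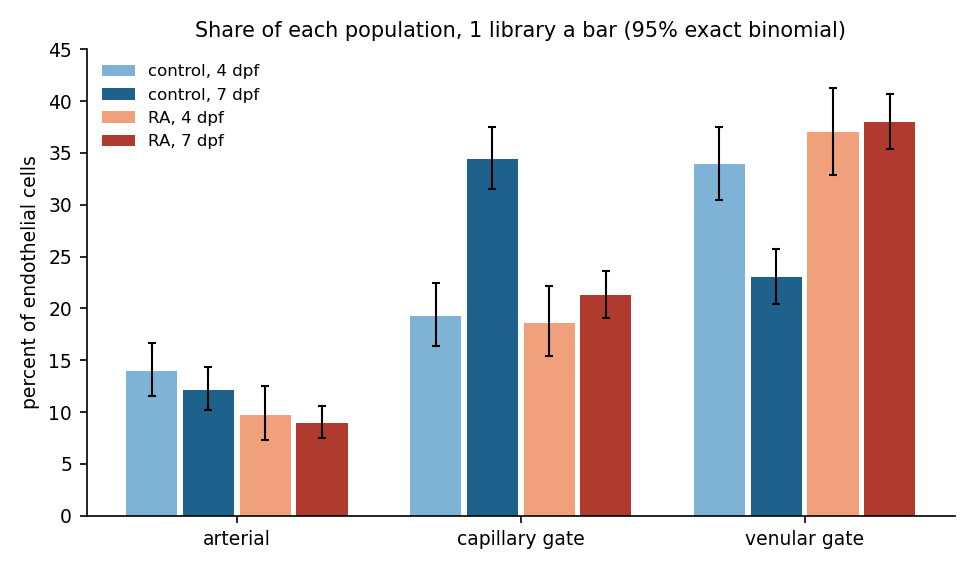
Arterial, capillary-gate and venular-gate cells as a percentage of endothelial cells, with a bar for each library and exact 95% binomial intervals that cover counting error only. For arterial cells the RA bars, 9.68% at 4 dpf and 8.95% at 7 dpf, are lower than the control bars of 14% and 12.1%.

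Within the arterial cells, few genes differed in size between RA and control. A gene was counted where its values differed more than 2-fold on the log2(CPM + 1) scale, provided that it had 20 UMIs over both libraries and reached 50 CPM in one of them. Each group was 1 library, and no test was made. At 4 dpf 19 genes of 3659 were higher in RA (0.519%) and 19 lower (0.519%), and at 7 dpf 15 of 3784 were higher (0.396%) and 20 lower (0.529%). Over all 9604 genes with 20 UMIs the median log2 ratio was −0.01 on the earlier day, and over 10615 such genes 0.02 on the later day. Of the arterial genes outside the rule, 0 of the 18 with enough counts were past 2-fold at 7 dpf and 1 of 17 at 4 dpf. *Efnb2* changed by 0.01 at 4 dpf and −0.03 at 7 dpf, *Hey1* by −0.35 and −0.40, and *Sox17* by −0.31 and 0.01. *Rbpj* changed by −0.01 and −0.23, with 46.8 and 46.5 CPM in control and RA at 4 dpf and 59.0 and 50 CPM at 7 dpf. Of the Notch genes that reached 50 CPM, *Dll1* alone was past 2-fold, higher in RA by 1.02 on the log2 scale at 4 dpf, beside 0.69 on the later day. Without the highest cell of each library its ratio at 4 dpf was 0.84, under 2-fold. Below that level, *Hey2* stood at 4.34 CPM in control and 20.6 CPM in RA at 4 dpf (9 and 23 UMIs, log2 ratio 2.01) and at 10.2 and 17.8 CPM at 7 dpf (0.75), and *Notch3* was at −0.16 on the earlier and 1.04 on the later day.

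Of the 15 genes past 2-fold higher in RA at 7 dpf, 4 were also higher at 4 dpf. Of the 20 lower ones, 12 were also lower at 4 dpf. Both counts needed at least 20 UMIs over the libraries of 4 dpf. Genes past 2-fold in the same direction at both times were 1 higher in RA and 4 lower. *Cxcl2*, *Hbb-bs* and *Rgs5* were past 2-fold at both times in opposite directions. *Esm1*, endocan, a gene of sprouting endothelium, fell from 63.7 to 11.6 CPM at 4 dpf and from 78.0 to 18.8 CPM at 7 dpf, log2 ratios of −2.36 and −1.99. A UMI of *Esm1* was found in 17 of 100 and 32 of 122 arterial cells of the controls and in 3 of 51 and 16 of 121 of the RA libraries. It was also lower in the other endothelial cells of RA, at −1.86 and −1.98, so the lower values were not limited to arterial cells. *Igfbp3*, a binding protein of insulin-like growth factors, fell from 348 to 136 CPM and from 766 to 347 CPM, ratios of −1.35 and −1.14, beside −0.57 and −1.12 in the other endothelial cells. In cells with at least 6 UMIs of the selecting genes the ratio at 7 dpf was −0.91, under 2-fold. It was found in 47 of 100, 79 of 122, 25 of 51 and 70 of 121 arterial cells, so at 4 dpf the cells with a UMI were as frequent and carried fewer. *Thbs1*, thrombospondin 1, an inhibitor of angiogenesis, fell from 67.5 to 26.8 CPM and from 148 to 39.1 CPM. *Nts*, neurotensin, fell from 494 to 86.7 CPM and from 132 to 38.6 CPM, but 467 of its 1025 UMIs in control at 4 dpf came from 1 cell. Without the highest cell of each library its log2 ratios were −2.40 and −1.61, still past 2-fold. *Cytl1*, a small secreted protein, rose from 17.8 to 132 CPM and from 73.1 to 191 CPM, and at 4 dpf 113 of its 148 RA UMIs came from 1 cell. Its log2 ratios were 2.82 and 1.37. Without the highest cell of each library they were 1.42 and 1.48, still past 2-fold.

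Other genes past 2-fold at 7 dpf had a ratio of the same sign at 4 dpf, some of them with nearly equal values there. They included *Gsn*, *9530026P05Rik* and *Cd300lg*, higher in RA, and *Nupr1*, *Acta2*, *Tpm2* and *Col12a1*, lower. *Gsn*, the actin-severing protein gelsolin, stood at 72.2 and 189 CPM in control and RA, but 193 of its 382 RA UMIs came from 1 cell, and without doublet calls the log2 ratio was −0.10. *Cd300lg*, a membrane receptor of capillary endothelium, stood at 29.3 and 62.4 CPM at 7 dpf (1.07) and at 85.4 and 85.8 CPM at 4 dpf. *9530026P05Rik*, a noncoding transcript, stood at 44.9 and 95.6 CPM at 7 dpf, was found in 48 of 122 and 58 of 121 cells, and stood at 42.4 and 43.8 CPM at 4 dpf. *Nupr1*, a stress-induced nuclear protein, stood at 68.7 and 20.3 CPM and at 21.7 and 20.6 CPM at 4 dpf. At 7 dpf *Tpm2*, a tropomyosin, stood at 273 and 96.1 CPM, *Col12a1*, a fibril-associated collagen, at 61.4 and 25.3 CPM, and *Acta2* at 780 and 244 CPM. The 8 mesenchymal markers summed to 3186 CPM in control and 2357 CPM in RA on that day, with a median log2 ratio of −0.26. They went both ways, with *Col1a1* at 994 and 592 CPM and *Dcn* at 126 and 236 CPM. Their part in the *Col12a1* difference was not tested. In *Acta2* 755 of 1599 and in *Tpm2* 334 of 559 control UMIs at 7 dpf came from 1 cell. Without the highest cell of each library *Tpm2* was at −0.93, under 2-fold, and *Acta2* at −1.44, still past it. Mural markers in sum moved with *Acta2* and *Tpm2*, at 1617 CPM in control and 670 CPM in RA for the 12 together, a sum that includes *Acta2*. They did not all fall. Of the 4 that reached 50 CPM, 3 were past 2-fold lower in RA and 1 higher. *Tagln* stood at 522 and 123 CPM and *Myh11* at 155 and 74.8 CPM, but *Rgs5* at 64.4 and 132 CPM. *Pdgfrb*, a less abundant one, stood at 11.2 and 26.3 CPM. The part of mural RNA in these differences was not tested. When the highest cell of each gene was left out of each library, 14 of the 19 higher and 14 of the 19 lower genes at 4 dpf, and 9 of 15 and 14 of 20 at 7 dpf, were still past 2-fold. Among the genes past 2-fold at 4 dpf only were *Mgp* and *Eln*, 2 genes of the *Gja5*-carrying cells, which were higher in RA (528 to 2206 CPM and 144 to 504 CPM), and *Dkk2*, which was lower (142 to 42.9 CPM). At 7 dpf *Mgp* stood at 2181 and 2292 CPM and *Dkk2* at 146 and 155 CPM, while *Eln* was higher in RA on that day too, at 437 and 817 CPM (0.90, under 2-fold). These last 3 were picked after their values were seen.

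**Figure D5:**
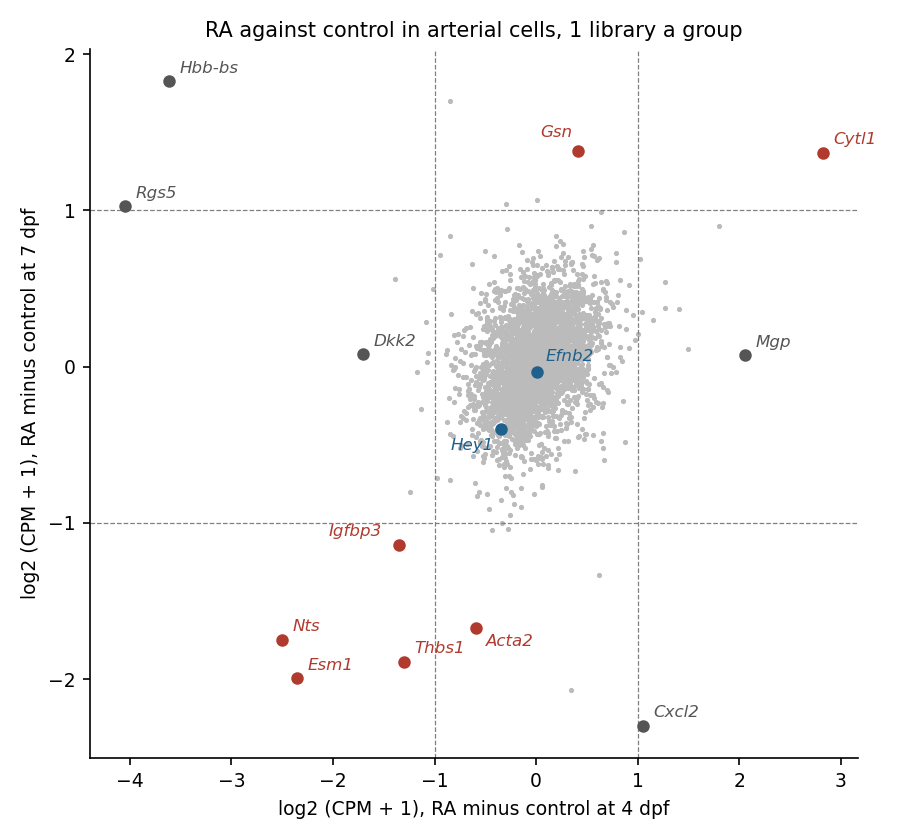
Log2 ratio of RA to control in arterial cells at 4 dpf (horizontal) and 7 dpf (vertical), on the log2(CPM + 1) scale, for the 3456 genes that reached 50 CPM in one of the libraries on each day, with dashed lines at 2-fold. Most genes lie near 0, *Esm1*, *Nts*, *Thbs1* and *Igfbp3* lie in the lower left corner and *Cytl1* in the upper right.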

How the data were processed

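Libraries were made with the Chromium 3′ v3.1 kit, and the authors aligned reads to mm10 and counted UMIs with Cell Ranger 7.0.1. The deposited matrices hold raw UMI counts of 32285 genes per barcode. The endothelial, capillary and venular gates, the 394 arterial cells and all 25 gene lists were chosen with earlier results of these data known. Counts were summed per library and population and tested with edgeR 4.0.16 (filterByExpr, TMM, glmQLFit, 3 residual degrees of freedom). The study's methods tested cells, which are not replicates, so library sums were used here. On simulated counts for 13229 genes, 167 of 195 genes changed 2-fold were recovered and 7 unchanged genes were called. Doublets were called per library with Scrublet in scanpy 1.11.5 (592 of 25479 kept cells) and were left in. CPM are counts per 1000000 UMIs of the population. Named genes were up to 5 members of each list with the smallest p, every Notch gene tested, the 10 largest rises and falls, *Rbpj*, *Dnmt3b*, and up to 8 genes each way of RA against control at 7 dpf with the same direction at 4 dpf; genes outside this rule are said to be picked after their values were seen. Lack of overlap between populations in genes named for their p or their rise is a description, and its share over all genes was not counted. Intervals cover counting error only. Promoters and their sequence were RefSeq's, on GRCm38.p6.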

Additional observations from a re-analysis of the deposited data

Results flagged for a closer look

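In arterial cells 3 genes were past 2-fold in opposite directions at the 2 times, and the difference between times was not tested. *Cxcl2*, a neutrophil chemokine, had log2 ratios of RA to control of 1.06 at 4 dpf and −2.30 at 7 dpf, with 50.6 and 106 CPM and then 114 and 22.3 CPM. At 4 dpf 57 of its 119 RA UMIs came from 1 cell, and without the highest cell of each library its ratio was 0.58. *Hbb-bs*, a globin, had ratios of −3.62 and 1.83, 584 of its 832 UMIs in RA at 7 dpf came from 1 cell, and without the highest cells its ratio at 7 dpf was 0.13. The 8 erythroid and platelet markers went from 1023 to 83.9 CPM at 4 dpf and from 516 to 860 CPM at 7 dpf in the other endothelial cells too. *Rgs5*, a pericyte marker, had ratios of −4.05 and 1.03, and without the highest cell of each library −0.65 and 1.52. None of the 3 was then past 2-fold in opposite directions.

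Outside the filter on depth, genes and mitochondrial share, 42 of 8559 barcodes also met the arterial rule. They numbered 15, 13, 7 and 7 in control at 4 and 7 dpf and RA at 4 and 7 dpf. Of these, 22 had over 50000 UMIs, 27 over 7000 genes, 10 fell below a minimum and 9 were over 8% mitochondrial. *Hey1* stood at 116, 98.1, 129 and 179 CPM in them and *Efnb2* at 393, 318, 509 and 426 CPM, beside 129, 145, 101 and 110 CPM and 403, 448, 406 and 438 CPM in the arterial cells.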

How the results depend on the processing

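The count of genes higher or lower in arterial than other endothelial cells stayed within 1.5 times of 1936 and 2111 under every alternative run: DESeq2 size factors, the DESeq2 Wald test (1532 and 1629), no filter on low counts (1838 and 2809), no replicate block (1459 and 1505), leaving out each library (1528 to 1654 and 1642 to 1820), the other gates, doublets left out, cells of 10000 to 30000 UMIs, and comparison cells under the same *Prox1*, *Mki67* and *Ptprc* limits (1758 and 1541). The library block pairs the arterial and other cells of each library. Similar counts did not always mean the same genes. Of the 1936 higher genes, the alternatives shared from 1437 (no replicate block) to 1927 (DESeq2 size factors). Of the 2111 lower genes, they shared from 1255 (comparison cells under the *Prox1*, *Mki67* and *Ptprc* limits) to 2110 (no filter on low counts). Of 1291 values for 93 named genes under these alternatives, 1260 kept direction and side of the threshold, 17 lost the call, 13 gained it and 1 reversed, *Notch3* with cells chosen by *Sema3g* alone (−0.26). *Rbpj* lost its call under 7 alternatives. The ratio of arterial shares, RA to control, was 0.644 to 0.888 at 4 dpf and 0.669 to 0.926 at 7 dpf over the alternatives run. The 2-fold counts of RA against control did not change with a minimum of 50 UMIs. At 4 dpf the higher count of 19 became 10 with a pseudocount of 10 CPM, 33 with at least 6 marker UMIs and 11 without the highest cell of each gene, a setting added after seeing the data, and the lower count of 19 became 41 with at least 6 marker UMIs. At 7 dpf the higher count of 15 became 9 with a pseudocount of 10 CPM, 8 without doublet calls and 7 without the highest cell, and the lower count of 20 became 13 without the highest cell. *Gsn* reversed at 7 dpf without doublet calls (−0.10), and *Igfbp3* was at −0.91, under 2-fold, with at least 6 marker UMIs. Of 60 values for 12 named genes of RA against control, 47 stayed within the counting interval, 12 moved out of it and 1 reversed, and without doublet calls 14 of the 20 lower genes and 7 of the 15 higher genes at 7 dpf were among those past 2-fold. The cause was not tested. The RA library at 4 dpf, with 51 arterial cells and 1118970 UMIs, had the lowest summed depth, though the highest median per cell.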
